A study of Bos taurus with 2 samples.

Results

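Fatty acid activation and beta-oxidation, the route by which a muscle fibre burns fatty acids, is described here through 33 genes compared in 2 pools of fetal longissimus thoracis (LT) muscle of Japanese Black cattle. The genes were chosen by name, as enzymes, carriers and binding proteins of the route, with earlier results of these arrays known, and the rule itself has no threshold on a measured value. They fall into 8 steps, from the activation of the fatty acid to the peroxisome. Array probes were assigned to 31 of them, and all 31 gave a value, among 19969 genes detected in the muscle. An accession without a symbol counts here as a gene of its own. For CPT1A and ACSL4 no probe was matched, and they were not analysed here.

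The dams of the low nutrition (LN) group received 60% of the nutritional requirement during gestation, and those of the high nutrition (HN) group 120%. All fetuses were taken at 8.5 months of gestation (day 260 ± 8.3) and were dissected for LT muscle from the right side. Each pool held the RNA of 4 fetuses, those with the highest BW among the fetuses of 6 HN dams and those with the lowest BW among the fetuses of 5 LN dams. Diet and the choice by BW therefore cannot be told apart. The counts of dams follow the methods of the study, while its carcass data are headed with 5 for HN and 6 for LN. The slide was a one-color Agilent array set, with 1 array for each pool. No test between the groups, no SD between fetuses and no p-value was possible.

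Long-chain fatty acids that enter a muscle cell are carried by a fatty acid binding protein, joined to coenzyme A by an acyl-CoA synthetase, and moved into the mitochondrion as carnitine esters. In the matrix each round of beta-oxidation removes a unit of acetyl-CoA through dehydrogenation, hydration, a further dehydrogenation and thiolysis, with enzymes that differ by the length of the chain. The electrons of the initial dehydrogenation pass through the electron transfer flavoprotein to ubiquinone, and peroxisomes shorten chains that mitochondria handle poorly. Oxidative muscle fibres are rich in these enzymes, and fat from milk becomes a main fuel after birth.

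CPT1B, the muscle form of the enzyme that commits fatty acids to the mitochondrion, is the only gene of the route for which the sources used here hold a sequence. The primer pair is shown because it targets the gene of the route that the study also followed by qRT-PCR in a separate measurement, and both primers run 5′ to 3′. The forward primer has 24 bases (45.8% G or C) and the reverse primer 22 bases (54.5% G or C).
CPT1B forward: gtatgttcgacccaaacaagtacc
CPT1B reverse: ctgggcatttgtctctgagctg

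Values are given on the log2 scale of the quantile-normalized signal, and differences as log2 LN/HN, so that a negative value is a lower signal in the LN pool. A gene was counted as lower or higher past the fold when this value was beyond 0.32 in size, which is 25% more or 20% less signal and is the fold used for the pathway lists of the study. The scanner software marked 74.5% of HN spots and 70.9% of LN spots as well above background, and none was saturated. For 42 probes printed in several spots the SD of the log2 ratio of 1 spot was 0.085, the probes of a gene differed by a median SD of 0.099 across the arrays, and 8 spike-in RNAs lay between -0.122 and 0.054 before normalization. These figures describe the arrays and not the spread between fetuses.

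The route was shifted to lower signal in the LN pool, with 24 of the 31 genes lower and 7 higher or level. The median log2 LN/HN was -0.131, beside -0.003 over all 19554 genes with a value. Of these 19554, 10637 had a symbol, with a median of -0.002 and 852 lower past the fold. Lower genes made up 77.4% of the route and 50.7% of all genes. Past the fold, 9 genes were lower (29.0%), namely FABP3, CPT1B, SLC25A20, CRAT, MLYCD, ACADVL, HADHA, HADHB and ACOT2, where 9.11% of all genes were lower past it. A single gene, SLC22A5, was higher past the fold (3.23%), where 8.85% of all genes were. Only MLYCD passed 2-fold, which 0.286% of all genes did in the lower direction, and it did so at 1 dim probe and not with the normexp background correction (-0.44). RNA of a whole muscle was measured, so that fewer cells of a type and less RNA per cell cannot be told apart.

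Values at single probes, of which the gene means are averages, are given as a description. Of 91 probes, 86 were detected and 5 were not well above background on either array. Lower values were found at 63 of the 86 probes, and 26 of them passed the fold (30.2%), where 9.44% of all probes did. Higher values past the fold were found at 2 probes (2.33%), where 9.11% of all probes did. Of the 27 genes with several probes, 15 had all probes lower, 4 had all probes higher and 8 had probes of both signs. Over all 7460 genes with several probes, 29.5% had all probes lower and 28.7% all higher. At 4 genes (FABP3, CRAT, ACADVL and HADHB) every probe was lower past the fold, which 2.59% of all genes with several probes showed.

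**Figure D1:**
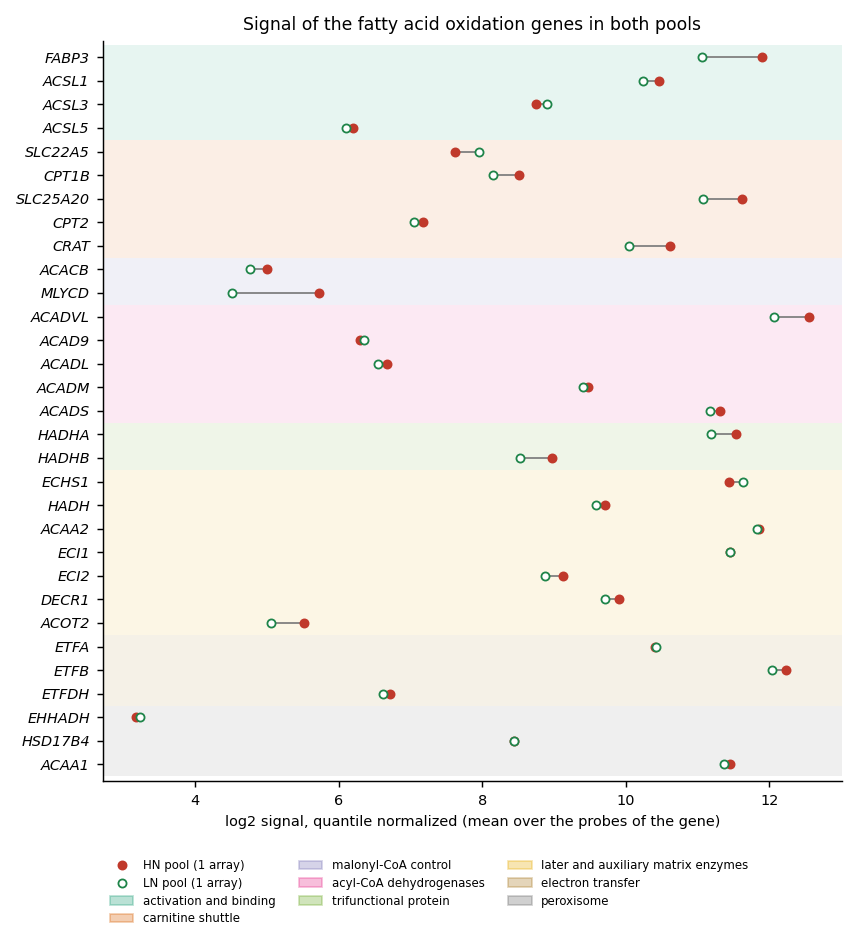
Quantile-normalized log2 signal (horizontal axis) of the 31 genes with a value, ordered by step, with the HN pool as filled and the LN pool as open circles, 1 array each. The open circle lies to the left of the filled one in 24 genes, and the widest gaps are those of MLYCD (-1.22) and FABP3 (-0.84). The LN value of ACSL5 is a mean that includes 1 probe set at the detection limit.

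The binding and activation of fatty acids were led by FABP3, the heart-type binding protein that carries fatty acids through the cytosol of muscle. Its signal was 11.90 in HN and 11.06 in LN, a difference of -0.84 ± 0.06 (SE over 3 probes), a change in signal of -44.1%. The probes stood at -0.94, -0.82 and -0.75, and the gene ranked 110 from the lowest of all 19554 genes. The long-chain acyl-CoA synthetases, which make acyl-CoA, varied less. ACSL1, the main synthetase of muscle, had a signal of 10.47 in HN and 10.24 in LN, and all 6 of its probes were lower, between -0.42 and -0.14, with a mean of -0.23 that stayed within the fold. ACSL3, a synthetase tied to lipid droplets and membranes, was 0.17 higher at both probes (8.75 against 8.91). ACSL5 differed by -0.11 at its bright probe (9.51 against 9.41). A dim probe of ACSL5 was not well above background on the LN array, where only a limit of -0.07 could be given. The median of the step was -0.159 over 4 genes.

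The carnitine shuttle held the most genes past the fold. CPT1B, which forms acylcarnitine on the outer membrane, had a signal of 8.52 in HN and 8.15 in LN, a difference of -0.37 ± 0.19 (SE over 3 probes). Its probes did not move alike, at -0.63, -0.46 and -0.01, so that the dimmest probe showed nearly equal signal in both pools. SLC25A20, the carrier that exchanges acylcarnitine for carnitine across the inner membrane, had a signal of 11.62 against 11.07 at its only probe, a difference of -0.55 (a change in signal of -31.7%). CRAT, which makes short-chain carnitine esters such as acetylcarnitine, had 10.61 against 10.04, and its probes stood at -0.72 and -0.42 with a mean of -0.57. CPT2, which returns the acyl group to coenzyme A in the matrix, was at -0.13 (7.18 against 7.05), with probes at -0.19 and -0.08.

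SLC22A5, which imports carnitine into the cell, went the other way. Its signal was 7.62 in HN and 7.96 in LN, with probes at 0.21 and 0.46 and a mean of 0.33 ± 0.12 (SE over 2 probes). The mean lay just past the fold, and 1 of the 2 probes lay within it. The median of the shuttle was -0.369 over 5 genes, of which 3 were lower and 1 higher past the fold.

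Malonyl-CoA is the brake on the carnitine shuttle, since it inhibits CPT1. MLYCD, the decarboxylase that breaks malonyl-CoA down, had the lowest ratio of the route as processed here, with a signal of 5.73 in HN and 4.52 in LN. The difference of -1.22 is a change in signal of -57.0%, and the gene ranked 23 from the lowest of all genes. With the normexp background correction it was at -0.44, and FABP3 (-0.81), SLC25A20 (-0.51) and ACADVL (-0.47) were lower. The MLYCD value rests on 1 probe, since the other was not well above background on either array. ACACB, the acetyl-CoA carboxylase that makes malonyl-CoA at the mitochondrion, differed by -0.24 ± 0.17 (SE over 11 probes). Its probes ranged from -1.54 to 0.66, with 7 lower and 4 higher, so that the direction of this gene is not settled by these arrays.

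**Figure D2:**
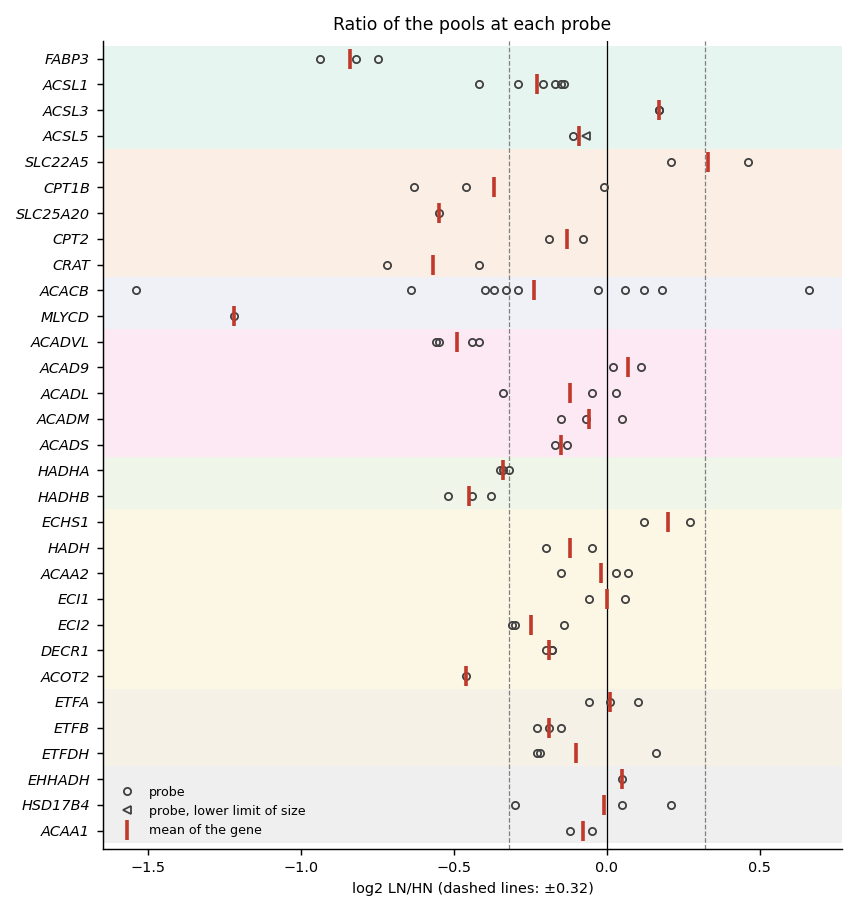
Log2 LN/HN (horizontal axis) of each of the 86 probes with a value (open circles, with a triangle for the ACSL5 probe known only as a limit) and the mean of each gene (red bar), with dashed lines at the fold (0.32 either way). The probes of FABP3, CRAT, ACADVL and HADHB all lie left of the lower dashed line, while those of ACACB spread from -1.54 to 0.66.

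The acyl-CoA dehydrogenases open each round of beta-oxidation, and they differ in the length of chain that they accept. ACADVL, which acts on very long chains, had a signal of 12.55 in HN and 12.06 in LN, a difference of -0.49 ± 0.04 (SE over 4 probes). All probes passed the fold, at -0.56, -0.55, -0.44 and -0.42. The other 4 stayed within it. ACADL, for long chains, was at -0.12 (6.67 against 6.55, probes from -0.34 to 0.03), ACADM, for medium chains, at -0.06 (9.47 against 9.41, probes from -0.15 to 0.05), and ACADS, for short chains, at -0.15 (11.32 against 11.17, probes at -0.17 and -0.13). ACAD9, which also serves in the assembly of complex I of the respiratory chain, was at 0.07 (6.30 against 6.36), with 1 more probe not well above background. The ratio therefore did not follow chain length step by step, and only ACADVL passed the fold.

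The mitochondrial trifunctional protein carries out the remaining reactions on long chains, and both of its subunits were lower past the fold. HADHA, the alpha subunit with the hydratase and the dehydrogenase, had a signal of 11.53 against 11.19, a difference of -0.34 ± 0.01 (SE over 3 probes), a change in signal of -20.8%. Its probes lay between -0.35 and -0.32, on the threshold itself. HADHB, the beta subunit with the thiolase, had 8.98 against 8.53, a difference of -0.45 ± 0.04 (SE over 3 probes), a change in signal of -26.6%, with probes from -0.52 to -0.38. The genes of both subunits are neighbours in the bovine gene table.

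The later and auxiliary enzymes of the matrix, which finish shorter chains, handle unsaturated ones or split acyl-CoA, had a median of -0.125 over 7 genes. ECHS1, the short-chain enoyl-CoA hydratase, was 0.20 higher (11.44 against 11.64, probes at 0.12 and 0.27). HADH, the short-chain hydroxyacyl-CoA dehydrogenase, was at -0.12 (9.71 against 9.59, probes at -0.20 and -0.05), and ACAA2, the matrix thiolase, at -0.02 (11.85 against 11.83, probes from -0.15 to 0.07). The counterparts of the trifunctional protein for short chains thus stayed within the fold.

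Of the auxiliary enzymes for unsaturated chains, ECI1, an enoyl-CoA isomerase, was level at 0.00 (11.45 in both pools, probes at -0.06 and 0.06). ECI2, a further isomerase, was at -0.25 (9.12 against 8.87), and DECR1, the dienoyl-CoA reductase, at -0.19 (9.90 against 9.71), with all 3 probes of each lower (-0.31 to -0.14 for ECI2 and -0.20 to -0.18 for DECR1). ACOT2, a thioesterase that splits acyl-CoA in the matrix, was lower past the fold at its only probe, with 5.52 against 5.06 and a difference of -0.46.

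Electron transfer from the dehydrogenases to ubiquinone was within the fold in all 3 genes, with a median of -0.097. ETFB, the beta subunit of the flavoprotein, was lower at every probe, with a mean of -0.19 (12.23 against 12.04, probes from -0.23 to -0.15), while ETFA, the alpha subunit, was level at 0.01 (10.41 against 10.42, probes from -0.06 to 0.10). ETFDH, the oxidoreductase that hands the electrons on, had probes at -0.23, -0.22 and 0.16 and a mean of -0.10 (6.71 against 6.62). The peroxisomal enzymes had a median of -0.014 and no gene past the fold. EHHADH and HSD17B4, the L- and D-bifunctional enzymes, were at 0.05 and -0.01, and ACAA1, the peroxisomal thiolase, at -0.08 (11.45 against 11.37, probes at -0.12 and -0.05). EHHADH rests on 1 dim probe (3.18 against 3.23), and the probes of HSD17B4 ranged from -0.30 to 0.21 (mean signal 8.45 against 8.44).

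**Figure D3:**
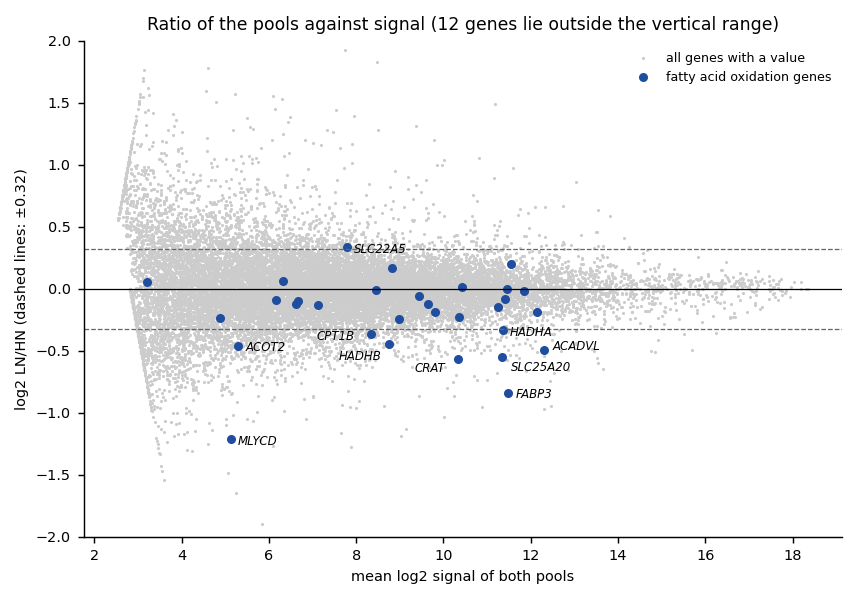
Log2 LN/HN (vertical axis) against the mean log2 signal of both pools (horizontal axis) for all 19554 genes with a value (grey) and the 31 genes of the route (blue, named where past the fold of 0.32, dashed lines), with 12 genes outside the vertical range. Bright genes scatter less than dim ones, and FABP3, ACADVL, SLC25A20 and CRAT lie below the bulk of genes of similar signal.

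Dim genes scattered more than bright ones on these arrays, so the genes of the route were also set beside genes of similar signal. The middle range of their mean log2 signal (interquartile range, 6.89 to 11.35) held 8442 genes, with a median of 0.003. Of these, 4.86% were lower and 3.83% higher past the fold, while of the 15 genes of the route in that range 4 were lower (CPT1B, SLC25A20, CRAT and HADHB) and 1 was higher. Above it, 3 of 8 genes of the route were lower past the fold (FABP3, ACADVL and HADHA), where 3.24% of other genes were. Below it, 2 of 8 were (MLYCD and ACOT2), where 14.0% of other genes were. Within the route the ratio did not go with the signal (Pearson's r 0.00, Spearman's rho -0.07 over 31 genes, as a description). The error that the scanner software gives for the log2 ratio of a probe had a median of 0.20 over the 86 probes of the route with a value and among these reached 0.89 at a dim probe of ACSL5. Of the genes past the fold, CPT1B, HADHA and SLC22A5 differed by less than 2 times this median. Spots around those of the route had median ratios between -0.084 and 0.094, and no spot of the route carried an outlier flag.

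Other genes of fatty acid oxidation had a median close to that of all genes. Of 48 such genes (uptake, minor synthetases, peroxisomal oxidases, carnitine synthesis, thioesterases and propionate use), 40 had a value, with 0 lower and 4 higher past the fold and a median of 0.049, beside 9.11% lower and 8.85% higher over all genes. The higher ones, a count close to that share, were FABP4, the adipocyte binding protein (0.39, 8.18 against 8.57 at 1 probe), MMUT, the methylmalonyl-CoA mutase (0.36), ACACA, the cytosolic acetyl-CoA carboxylase (0.39), and SLC25A42, a mitochondrial coenzyme A carrier (0.96). Only FABP4 stayed past the fold in all 7 other settings (0.36 to 0.41). With the normexp background correction ACACA, SLC25A42 and MMUT stood at 0.09, 0.08 and 0.25, ACACA was at 0.23 with the 75th percentile and 0.27 without normalization, and MMUT was at 0.30 with the brightest probe.

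Of the pathways that take up the products of beta-oxidation, hand-picked lists of genes were set beside the route, and 0 of the genes with a value passed the fold in either direction. In the tricarboxylic acid cycle all 18 genes had a value and the median was -0.016. Of all other genes in the middle range of their signal (interquartile range, 10.87 to 12.42), 7.05% passed the fold in either direction. In the respiratory chain 18 of 20 genes had a value and the median was -0.044. In the middle range of their signal (12.69 to 14.92), 5.43% of other genes passed it. No test of the difference between these lists and the route was possible with 1 array per group.

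**Figure D4:**
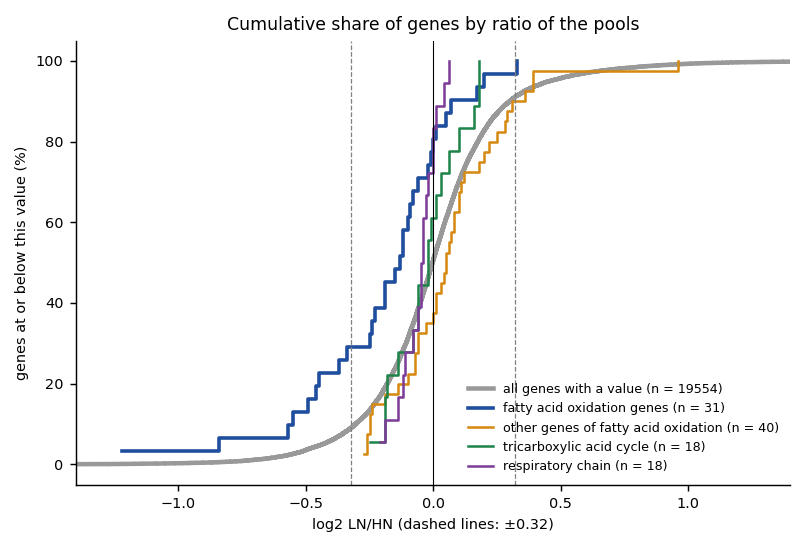
Cumulative percentage of genes (vertical axis) at or below each log2 LN/HN (horizontal axis) for the route, other genes of fatty acid oxidation, the tricarboxylic acid cycle, the respiratory chain and all genes with a value, with dashed lines at the fold (0.32 either way). The curve of the route lies left of that of all genes and has reached 29.0% at the lower line, where all genes are at 9.11%. The other genes of fatty acid oxidation, the tricarboxylic acid cycle and the respiratory chain are at 0% there.

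Markers of muscle and of other cells in the tissue differed between the pools in some lists, and their part in the result was not tested. The lists are small, and over all genes 9.11% were lower and 8.85% higher past the fold. Of the 8 skeletal muscle markers 6 had a value (among them ACTA1, CKM, DES and MYOG), all were lower, and MB, the oxygen store myoglobin, was past the fold at -0.37. The median of the list was -0.163, beside -0.131 for the route. Their summed signal was 391000 in HN and 354000 in LN. Of the slow fibre markers, 7 of 8 had a value, 6 were lower and 0 passed the fold, with a median of -0.121 (505000 against 482000 summed). Of the fast fibre markers, 6 of 8 had a value and 4 were lower, with MYH1 at -0.50 and ACTN3 at -0.60 past the fold. MYH2 was at 0.03 and TNNC2 at 0.00, and the median was -0.21 (520000 against 499000 summed).

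The 5 fibroblast markers were all higher and 3 of them past the fold (COL1A1 0.34, COL3A1 0.33, LUM 0.35), with a median of 0.33, and their summed signal was 18400 in HN and 22200 in LN. Of the endothelial markers all 6 had a value and 5 were lower, with CLDN5 past the fold at -0.39 and VWF at 0.02. Their median was -0.239 (5570 against 4400 summed). Of the macrophage markers 5 of 6 had a value and 4 were lower, with CD68 at -0.35 and C1QB at -0.45 past the fold. CD163 was at 0.02, and the median was -0.294 (4290 against 3460 summed). The adipocyte markers gave 4 values of 7, none past the fold, with LEP not well above background on either array. Their median was -0.096 (261 against 274 summed). The erythroid markers gave 3 of 5, none past the fold, with a median of -0.157 (596 against 533 summed).

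**Figure D5:**
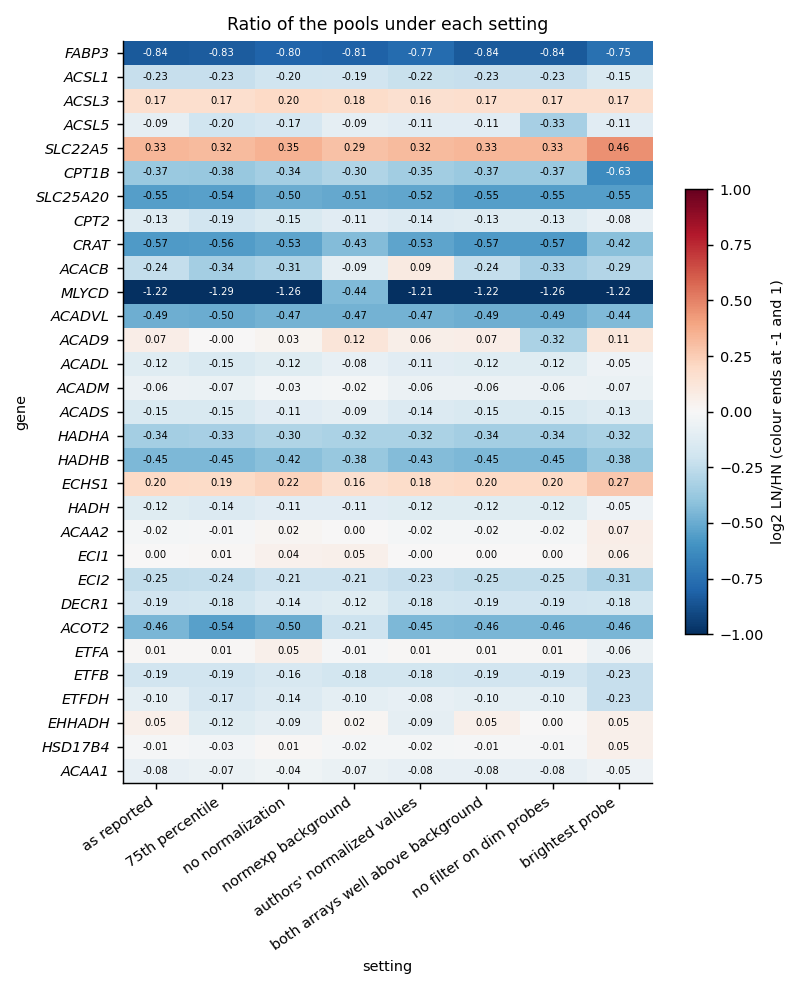
Log2 LN/HN of each gene of the route (rows) as reported and under 7 other ways of processing (columns), written in each cell and drawn in color (blue lower, red higher in the LN pool, color ends at -1 and 1). FABP3, SLC25A20, CRAT, MLYCD, ACADVL and HADHB are past the fold of 0.32 in every column.

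The processing moved some of these values. Of the 9 genes lower past the fold, 6 stayed past it in all 7 other settings (FABP3, SLC25A20, CRAT, MLYCD, ACADVL and HADHB). Of all 1781 genes lower past the fold, 16.5% did so, where a gene with no value in a setting was counted as not staying. These sets were not matched for signal. Of the genes outside the route lower past the fold, 1306 had a mean log2 signal below 6.89. CPT1B and ACOT2 lost it with normexp, at -0.30 and -0.21, and HADHA stayed between -0.34 and -0.30, on either side of the line. SLC22A5 stayed past it in 4 of the 7. ACACB was at 0.09 in the authors' normalized values, against -0.24 as reported, and the cause was not tested.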

How the data were processed

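The authors hybridized Cy3-labeled RNA to Agilent Bovine (v2) arrays and deposited Feature Extraction (11.0.1.1 per the labels) spot intensity values, background-corrected, with other spot flags and error estimates. They also deposited log2 values normalized by the quantile method. Here log2 intensities of the 43803 non-control spots were quantile normalized with limma 3.58.1 in R 4.3.3. After removal of 13 spots with an outlier flag, spots were averaged over the 43652 probes. Probes entered when marked well above background on 1 or both arrays. A dim side took the lowest such signal of its array (2.27 on HN, 2.82 on LN) or its own value if higher. A gene is the mean over its probes. Accessions of 26742 probes were matched to symbols through RefSeq genes (ARS-UCD2.0). The match grouped probes into genes and picked those of the route, and the same gene table gave the neighbours. An accession with no symbol was kept as a gene of its own.

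All 33 genes of the route are named, of the other fatty acid oxidation genes those past the fold of 0.32, and of the compared lists counts only. The genes and lists were chosen with earlier results of these data known. Alternatives were the 75th percentile, no normalization, normexp (offset 50, on median spot signals), the authors' normalized values, probes well above background on both arrays, no filter on dim probes, and the brightest probe. In simulated arrays of 19849 genes, all 200 altered genes were recovered past the fold in the right direction (median error 0.0497), with 2 unaltered genes past it. The planted changes all exceeded the fold, were put only in genes with a bright probe, and had the same small noise at every signal. The simulation therefore checked the steps of the calculation and gives no error rate for the real arrays. Python 3.11.15, numpy 2.4.6, pandas 2.3.3, scipy 1.17.1 and matplotlib 3.10.9 were used. The number of arrays limits the precision.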

Additional observations from a re-analysis of the deposited data

How the results depend on the processing

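No paired analysis was possible because each group has 1 array. Over the 7 settings, 200 of 217 values of the genes kept their sign and 24 of the 31 genes kept it in every setting. The 9 genes lower past the fold of 0.32 (9.11% of all genes) became 10 with the 75th percentile (13.6% of all genes), 8 without normalization (11.4%), 6 with normexp (1.96%), 8 in the authors' normalized values (8.64%), 9 with probes well above background on both arrays (7.99%), 11 without the filter on dim probes (13.4%) and 8 with the brightest probe (9.2%). With the 75th percentile 6.0% of all genes were higher past it and their median was -0.042. The 1 gene higher past the fold, SLC22A5, was lost (0 genes) with the 75th percentile, with normexp and in the authors' normalized values. The median of activation and binding was -0.282 without the filter, that of malonyl-CoA control -0.265 with normexp and -0.562 in the authors' values, and that of electron transfer -0.232 with the brightest probe; the cause was not tested. The median of the route lay between -0.186 without the filter and -0.10 with normexp. Over the settings 0 to 3 of the other genes of fatty acid oxidation were lower and 1 to 7 higher past the fold. Dim probes have limits on their ratio set by the background, and 1 array per group leaves the spread between fetuses unknown.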
